A study of Homo sapiens with 4 samples.

Results

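The mitochondrial ribosome is described here through the 71 nuclear genes of its proteins that could be read on the arrays, out of 22395 genes with a probe set of their own. They are the genes whose platform symbol starts with MRPL or MRPS and a number, each on a probe set with exactly 1 symbol, where a gene with several such probe sets is represented by its brightest on average. Their symbols are 46 MRPL and 25 MRPS names, and they lie on 21 chromosomes. The 6 genes MRPL12, MRPL30, MRPL53, MRPS6, MRPS24 and MRPS28 appeared only on probe sets that carry several symbols and have no value here. The pseudogenes MRPL42P5 and MRPL45P2, the antisense genes MRPL20-AS1 and MRPL23-AS1 and the divergent transcript MRPS30-DT were left out.

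RNA came from Huh7, a human hepatocellular carcinoma line, carrying 1 of 2 transfected plasmids. The 2 STYK1 arrays are from cells given pcFLAG-hSTYK1, which encodes human STYK1, a receptor-like kinase. The 2 control arrays are from cells given pcFLAG, so both groups share the plasmid backbone and the transfection. The time after transfection and the share of cells that took up plasmid were not stated in the labels, and every value is a bulk signal in which fewer cells and less RNA per cell cannot be told apart. Separate cultures for the 2 arrays of a group are not mentioned in the labels. The p-values therefore rest on a spread that may be technical.

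The mitochondrial ribosome translates the few messenger RNAs encoded by mitochondrial DNA, all for subunits of the respiratory chain and ATP synthase. Its ribosomal RNAs are made in the organelle, while its proteins are encoded in the nucleus, translated in the cytosol, imported and assembled into a large subunit, where peptide bonds form, and a small subunit, where codons are read. Part of the proteins descend from bacterial ribosomal proteins and part are particular to the mitochondrial ribosome. In hepatocytes, which hold many mitochondria, this machinery supplies the respiratory chain. Factors of the ETS family (GABPA with GABPB1), NRF1 and YY1 are known regulators of nuclear genes for mitochondrial proteins.

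The promoters were searched for motifs, which the choice of members did not use. RefSeq promoter sequences of the build GRCh38.p14 were matched for 64 of the 71 genes, in a window from 250 bases before the annotated start through 30 bases from it. The ETS core CCGGAAG, searched on both strands, was present in 27 of 64 promoters (42.2%), against 13.9% of 15843 promoters of protein-coding genes. The YY1 core AAGATGGC was present in 16 of 64 (25%), against 3.17%. Either of the 2 was found in 35 promoters, neither in the other 29 and both in 8, and in none of these did they overlap. Of the 27 genes with an ETS match, 19 had one that begins within the 50 bases before the start. Of the 16 with a YY1 match, 11 had one that reaches the start or beyond it, where these letters can also hold a start codon.

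The promoters of 4 members with a match are shown, MRPL3 and MRPL45 with a higher mean and MRPL47 and MRPS10 with a lower mean in the STYK1 arrays. None of these 4 differences passed the test, and 4 picked promoters cannot tie a motif to a direction. Capitals mark the ETS and YY1 cores on either strand. The windows are chr3:131502942-131503221 on the minus strand for MRPL3, chr17:38296918-38297197 on the plus strand for MRPL45, chr3:179604609-179604888 on the minus strand for MRPL47 and chr6:42217832-42218111 on the minus strand for MRPS10. Counted from the annotated start, the ETS core begins at −32 in MRPL3, −39 in MRPL47 and −22 in MRPS10. The YY1 core begins at 13 in MRPL45, −92 in MRPL47 and 9 in MRPS10, where base 0 is the start itself.
MRPL3: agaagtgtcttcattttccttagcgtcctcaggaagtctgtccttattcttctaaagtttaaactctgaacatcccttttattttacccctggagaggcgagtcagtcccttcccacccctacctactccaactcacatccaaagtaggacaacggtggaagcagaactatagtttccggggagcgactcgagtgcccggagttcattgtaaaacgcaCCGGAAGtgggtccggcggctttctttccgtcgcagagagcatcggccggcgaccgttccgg
MRPL45: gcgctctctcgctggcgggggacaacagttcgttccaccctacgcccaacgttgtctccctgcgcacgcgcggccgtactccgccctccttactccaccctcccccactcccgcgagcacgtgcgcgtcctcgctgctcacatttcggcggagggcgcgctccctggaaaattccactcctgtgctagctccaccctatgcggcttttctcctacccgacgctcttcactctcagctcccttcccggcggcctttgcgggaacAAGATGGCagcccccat
MRPL47: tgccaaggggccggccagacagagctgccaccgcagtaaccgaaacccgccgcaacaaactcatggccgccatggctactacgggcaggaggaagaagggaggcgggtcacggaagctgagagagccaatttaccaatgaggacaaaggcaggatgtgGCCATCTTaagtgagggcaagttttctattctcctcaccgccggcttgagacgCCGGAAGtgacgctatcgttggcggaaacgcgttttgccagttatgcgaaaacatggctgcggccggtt
MRPS10: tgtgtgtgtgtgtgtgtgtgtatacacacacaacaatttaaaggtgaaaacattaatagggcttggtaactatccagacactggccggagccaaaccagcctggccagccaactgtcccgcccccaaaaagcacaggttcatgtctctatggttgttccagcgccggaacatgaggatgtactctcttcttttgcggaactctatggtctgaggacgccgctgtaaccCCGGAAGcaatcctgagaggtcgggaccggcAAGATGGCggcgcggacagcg

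Another 7 motifs were searched on both strands of the same windows. The NRF1 core GCATGCGC was found in 6 of 64 (9.38%), against 4.15% of all. The E-box CACGTG bound by MYC was found in 6 (9.38%), against 8.62%, the GC box GGGCGG in 37 (57.8%), against 57.5%, and the CCAAT box in 20 (31.2%), against 35.8%. The TATA box TATAAA was found in 2 (3.12%), against 9.46%. The long motif of ZNF143 and THAP11 was found in 3 (4.69%), against 1.26%, and the ZBTB33 motif in 1 (1.56%), against 0.669%. A match is a description of letters and does not show that a factor binds there.

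**Figure D1:**
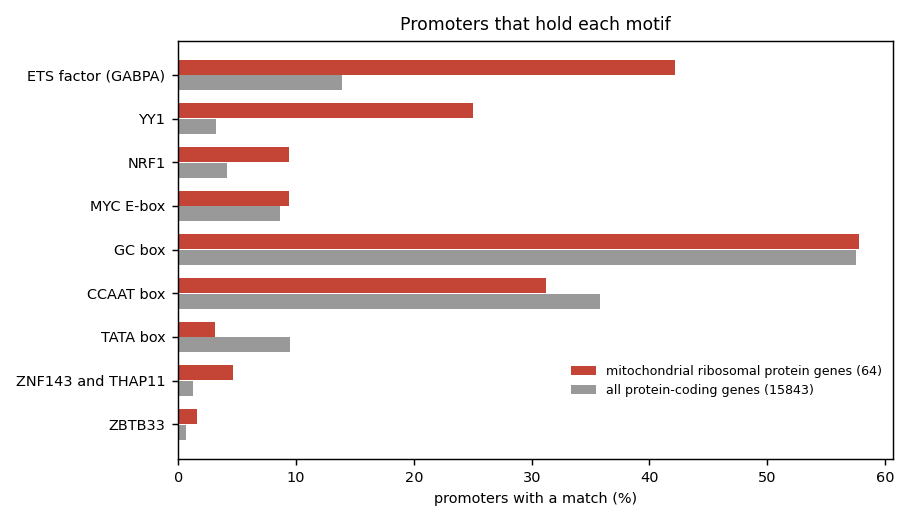
Share of promoters (percent, horizontal bars) that hold each of the 9 motifs searched, for 64 mitochondrial ribosomal protein genes (red) and 15843 protein-coding genes (grey). The ETS and YY1 cores are at 42.2% and 25% of the mitochondrial ribosomal protein promoters, against 13.9% and 3.17% of all.

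The transfected gene checks the labels. STYK1 read 7.40 and 7.86 in the STYK1 arrays and 0.26 and 0.61 in the controls, which lay under the floor, and the STYK1 arrays were higher by at least 118-fold (limma, adjusted p = 0.0373; the call ended without any 1 of the 4 arrays, with adjusted p-values of 0.347 to 0.724). Signals are on a log2 scale, and the floor, a level taken as background, is the signal under which 95% of 423 olfactory receptor probe sets fell on an array, at 0.725 to 0.774. Array medians lay at 0.615 to 0.629, and the number of arrays limits the precision. The labelled cell type was borne out by its markers, since 13 of 13 measured hepatocyte genes lay above the floor on all 4 arrays, with ALB at 10.60 and 10.60 in the STYK1 arrays, against 10.51 and 10.42 in the controls. Of the other markers, 0 of 4 endothelial and 0 of 6 fibroblast genes lay above it on all 4 arrays, while 3 of 7 immune genes (LYZ, CD68 and CD14) and 3 of 5 cholangiocyte genes (EPCAM, SOX9 and KRT19) did.

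Each of the 71 genes lay above the floor on all 4 arrays, and no difference passed the test. Single signals ran from 0.77 to 7.40. The lowest, of MRPL52 on STYK1 replicate 1, lay little above the floor of that array, 0.746. Some olfactory receptor probe sets also passed the floor, so lying above it does not by itself show expression. Of the 71, 36 were higher and 35 lower in the mean of the STYK1 arrays, with a median difference (STYK1 minus control, log2) of 0.0042, against 0.0022 over all named genes. With limma, 0 genes passed in either direction at the adjusted threshold of 0.05, and the smallest adjusted p of the family was 0.979. Of all 53617 probe sets 0.00187% passed, which is the 1 of STYK1, at a difference of 7.19. The lowest difference of all probe sets, −3.50, did not pass, so 0 calls do not show that the family was unchanged. At an unadjusted p under 0.05 the family also had 0 of 71. Of all probe sets 4.64% lay under it, of named genes 3.72%, and of the 9732 named genes above the floor on all arrays 5.38%. After quantile normalization the split was 28 higher and 43 lower, with a median of −0.03, against −0.01 over all named genes.

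The intervals show what size of difference in bulk signal the spread between these arrays leaves room for. That spread may be technical, and the share of transfected cells was not stated, so the change in transfected cells is not bounded. For all 71 genes the 95% interval of the difference lay within a 2-fold change either way and for 59 within 1.5-fold. Of the 9732 named genes above the floor on all arrays, 9523 lay within 2-fold and 7813 within 1.5-fold, so narrow intervals were common on these arrays. These are limma intervals for each gene by itself, not adjusted for their number. The widest reached 1.79-fold higher for MRPS31 and 1.83-fold lower for MRPL4. Of the 71 differences, 45 were smaller than 0.1 in size (63.4%) and 10 were larger than 0.2. Of the 9732 named genes above the floor on all arrays, 4982 (51.2%) were smaller than 0.1 and 1901 larger than 0.2. The median size was 0.07, against 0.10 for named genes above the floor on all arrays. Signals on such arrays can understate the change of dim genes, so a small difference at a low signal is a weaker limit than one at a high signal.

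**Figure D2:**
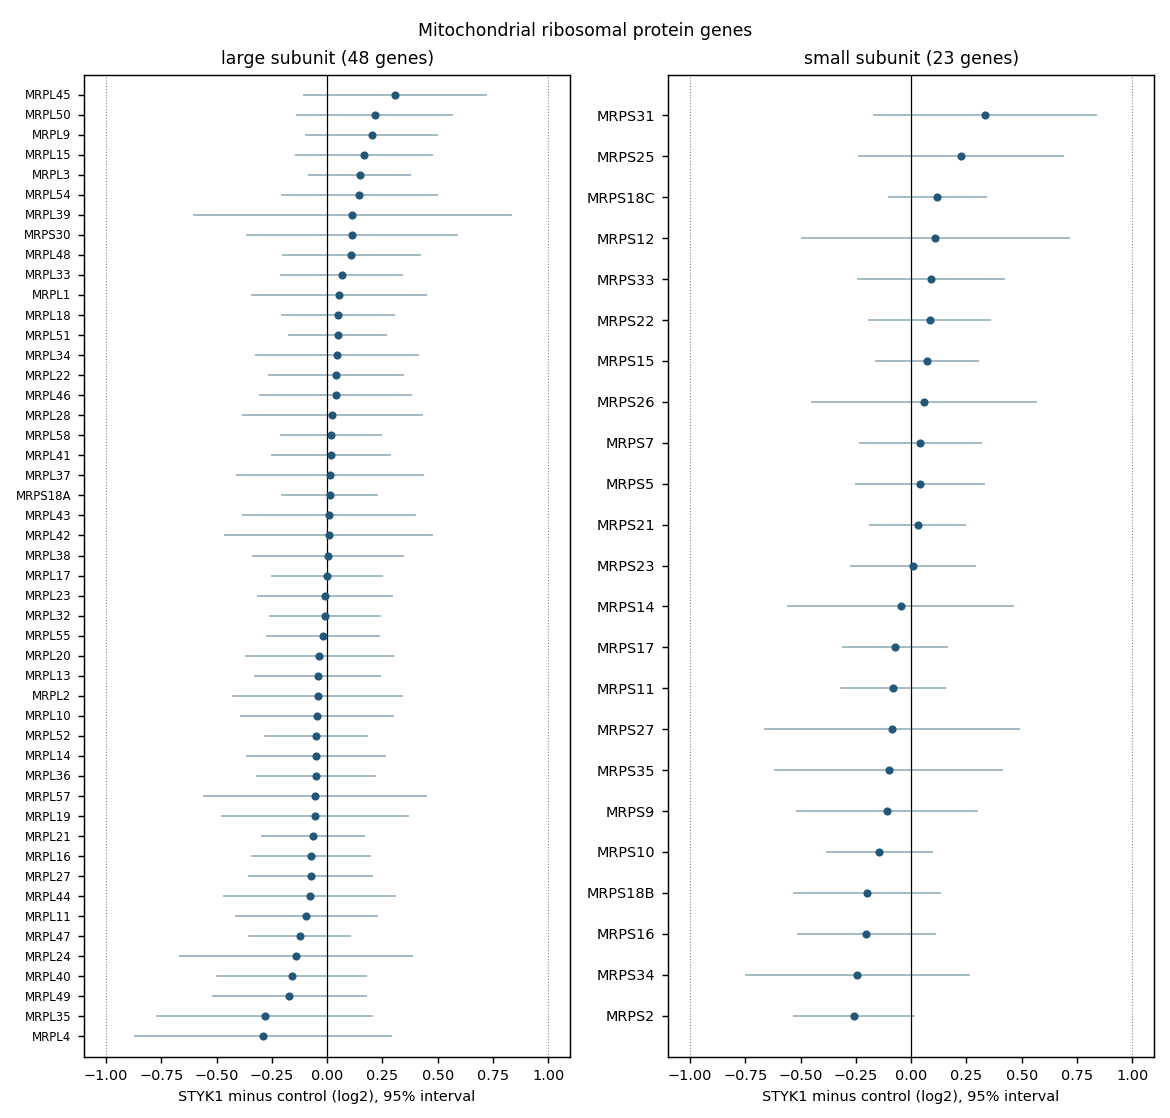
Difference between the STYK1 and control arrays (log2, horizontal axis) for each mitochondrial ribosomal protein gene, 48 of the large subunit on the left and 23 of the small subunit on the right, with points for the difference and bars for the limma 95% interval. Dotted lines mark a 2-fold change, and all 71 intervals lie between them and include 0.

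Arrays of 1 group and arrays of different groups lay similarly far apart. The median absolute difference over the 71 genes was 0.14 between the 2 STYK1 arrays and 0.16 between the 2 control arrays. Between single arrays of different groups it was 0.16 for STYK1 replicate 1 and control replicate 1, 0.10 for STYK1 replicate 1 and control replicate 2, and 0.13 and 0.12 for STYK1 replicate 2 against control replicates 1 and 2. The signals of the 2 groups did not overlap for 16 of 71 genes (22.5%), 7 higher and 9 lower, where 32.8% of all probe sets did not overlap, 17.4% higher and 15.4% lower. With 2 arrays on each side, the smallest two-sided p that exact permutation allows is 0.333, and that test was left out for single genes.

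**Figure D3:**
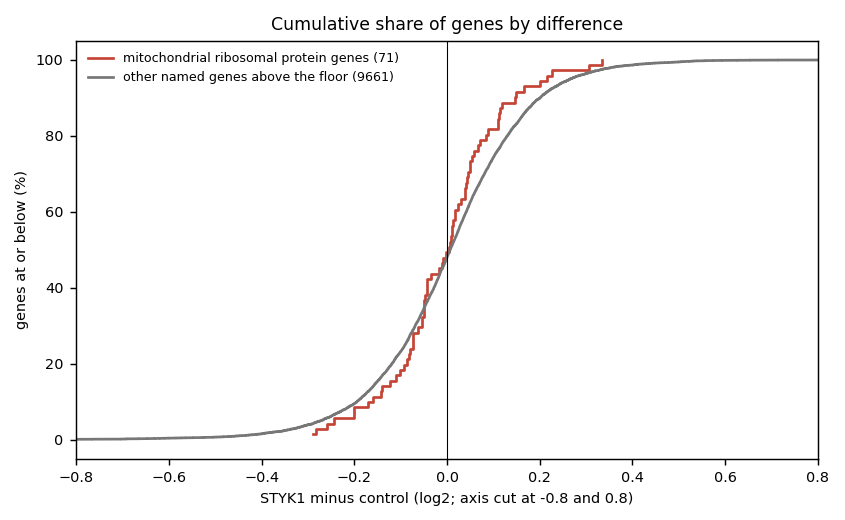
Cumulative share of genes (percent) by the difference between STYK1 and control arrays (log2), for the 71 mitochondrial ribosomal protein genes in red and for the other named genes above the floor on all 4 arrays in grey, with the axis ending at −0.8 and 0.8. Both lines cross 50% close to 0, and the red line spans −0.29 to 0.33.

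The large subunit was represented by 48 genes, counting MRPS18A and MRPS30, whose products sit in the large subunit in spite of their names. MRPS18A and MRPS18B, paralogues of bacterial protein S18 that arose as extra copies, are counted among the proteins particular to the mitochondrial ribosome. Of the 48, 24 were higher and 24 lower, with a median difference of 0.0009. The 27 with a bacterial counterpart split into 9 higher and 18 lower, with a median of −0.04. The 21 particular to the mitochondrial ribosome split into 15 higher and 6 lower, with a median of 0.01. Over all named genes 11375 were higher and 11019 lower, and a contrast between the 2 sets was not tested. Differences ran from −0.29 to 0.20 in the set of 27 and from −0.17 to 0.31 in the set of 21, and no member of either set passed.

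Among large subunit proteins with a higher mean, MRPL45 differed most. MRPL45, which faces the inner membrane beside the exit of the peptide tunnel, read 7.25 and 7.25 in the STYK1 arrays, against 6.74 and 7.15 in the controls. Both STYK1 arrays and control replicate 2 lay close together and control replicate 1 was low, and the difference was 0.31 with a standard error of 0.16 and did not pass (limma, adjusted p = 0.979). Its pseudogene MRPL45P2, whose transcript may share sequence with it, read 2.68 and 2.32 in the STYK1 arrays, against 2.58 and 2.40 in the controls. MRPL9, a counterpart of a bacterial protein, read 5.23 and 5.22 in the STYK1 arrays, against 4.90 and 5.14 in the controls. It showed the same order of arrays, and differed by 0.20 with a standard error of 0.11. MRPL3, which lies near the peptidyl transferase centre and is mutated in some patients with a mitochondrial cardiomyopathy, read 7.04 and 6.95 in the STYK1 arrays, against 6.84 and 6.86 in the controls. Its groups did not overlap, and the difference was 0.15 with a standard error of 0.09.

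MRPL15, another counterpart of a bacterial protein, read 5.17 and 5.09 in the STYK1 arrays, against 4.84 and 5.09 in the controls. The higher control array lay within 0.01 of the lower STYK1 array, so the difference of 0.17 rests on control replicate 1. MRPL50, particular to the mitochondrial ribosome, read 3.03 and 3.31 in the STYK1 arrays, against 2.87 and 3.04 in the controls. Its groups overlapped and the difference was 0.21. The adjusted p was 0.979 (limma) for each of MRPL9, MRPL3, MRPL15 and MRPL50.

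On the lower side of the large subunit, the biggest difference came from 1 array. MRPL4, whose bacterial counterpart lines the peptide tunnel, read 4.05 and 3.41 in the STYK1 arrays, against 4.02 and 4.02 in the controls. STYK1 replicate 2 alone was low, and the difference was −0.29 with a standard error of 0.22. Without that array it was 0.03, and without STYK1 replicate 1 it was −0.61. MRPL35 read 4.003 and 4.24 in the STYK1 arrays, against 4.17 and 4.63 in the controls. Its groups overlapped, control replicate 2 was the high one, and the difference was −0.28 with a standard error of 0.19.

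MRPL47, the counterpart of a bacterial protein at the tunnel exit, read 4.15 and 4.21 in the STYK1 arrays, against 4.34 and 4.27 in the controls. The groups did not overlap and the difference of −0.12 was small, with a standard error of 0.09. MRPL49 read 3.21 and 3.17 in the STYK1 arrays, against 3.52 and 3.20 in the controls. Control replicate 1 stood above the other 3 arrays, and the difference was −0.17. The adjusted p was 0.979 (limma) for MRPL4, MRPL35 and MRPL47 and 0.98 for MRPL49.

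2 large subunit genes were the least steady within a group. MRPL39 read 2.66 and 1.95 in the STYK1 arrays, against 2.38 and 2.001 in the controls, and the gap of 0.71 between the STYK1 arrays was the widest of the 71 genes in that group. Its difference of 0.11 turned to −0.24 without STYK1 replicate 1. MRPL24, whose bacterial counterpart sits at the tunnel exit, read 3.62 and 3.56 in the STYK1 arrays, against 4.01 and 3.45 in the controls. The gap of 0.56 between the controls was the widest in that group, and its difference of −0.14 turned to 0.14 without control replicate 1.

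The small subunit was represented by 23 genes, 12 higher and 11 lower, with a median difference of 0.01. The 13 with a bacterial counterpart split into 6 higher and 7 lower, from −0.26 to 0.12. The 10 particular to the mitochondrial ribosome split into 6 higher and 4 lower, from −0.24 to 0.33. The groups did not overlap for 8 of the 23 genes, 2 higher and 6 lower, a share of 34.8% that lies near the 32.8% of all probe sets.

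MRPS2 had the smallest p of the family and was lower. MRPS2, the counterpart of a bacterial protein on the outer side of the small subunit, read 0.84 and 0.90 in the STYK1 arrays, against 1.22 and 1.04 in the controls. The groups did not overlap, and the difference was −0.26 with a standard error of 0.10 (limma, unadjusted p = 0.0594, adjusted p = 0.979). All 4 signals lay little above the floor, which bears on how far the difference can be read. MRPS16, mutated in some patients with a combined deficiency of the respiratory chain, read 5.40 and 5.49 in the STYK1 arrays, against 5.77 and 5.52 in the controls. The groups did not overlap, and the difference was −0.20 with a standard error of 0.12. MRPS10 read 5.92 and 5.95 in the STYK1 arrays, against 6.02 and 6.14 in the controls. The 2 STYK1 arrays agree within 0.03, both lay below the controls, and the difference was −0.14.

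The paralogues of bacterial protein S18 did not go 1 way. MRPS18B read 4.82 and 4.54 in the STYK1 arrays, against 4.83 and 4.94 in the controls, a difference of −0.20. The array holds 7 probe sets with this symbol, which carry 1 identical set of values and count once. MRPS18C read 1.06 and 1.09 in the STYK1 arrays, against 0.92 and 0.98 in the controls. The groups did not overlap, its difference was 0.12, and its signals lay near the floor. MRPS18A, which belongs to the large subunit, read 4.75 and 4.72 in the STYK1 arrays, against 4.72 and 4.73 in the controls. All 4 arrays lay within 0.03 of each other, and MRPS18A was named for its kinship to the other paralogues after its values were seen.

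Among the higher genes of the small subunit were 2 whose proteins are particular to the mitochondrial ribosome. MRPS31 read 2.70 and 2.39 in the STYK1 arrays, against 1.99 and 2.43 in the controls, with the largest difference of the 71 genes, 0.33 with a standard error of 0.19. Its groups overlapped, because STYK1 replicate 2 lay under control replicate 2. The difference was 0.11 without control replicate 1 and 0.55 without control replicate 2. MRPS25, mutated in some patients with a mitochondrial disease, read 4.19 and 4.65 in the STYK1 arrays, against 4.25 and 4.13 in the controls. STYK1 replicate 2 alone was high, and without it the difference of 0.23 became −0.0065. The adjusted p was 0.979 (limma) for MRPS16, MRPS10, MRPS18B, MRPS18C and MRPS31 and 0.98 for MRPS25.

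**Figure D4:**
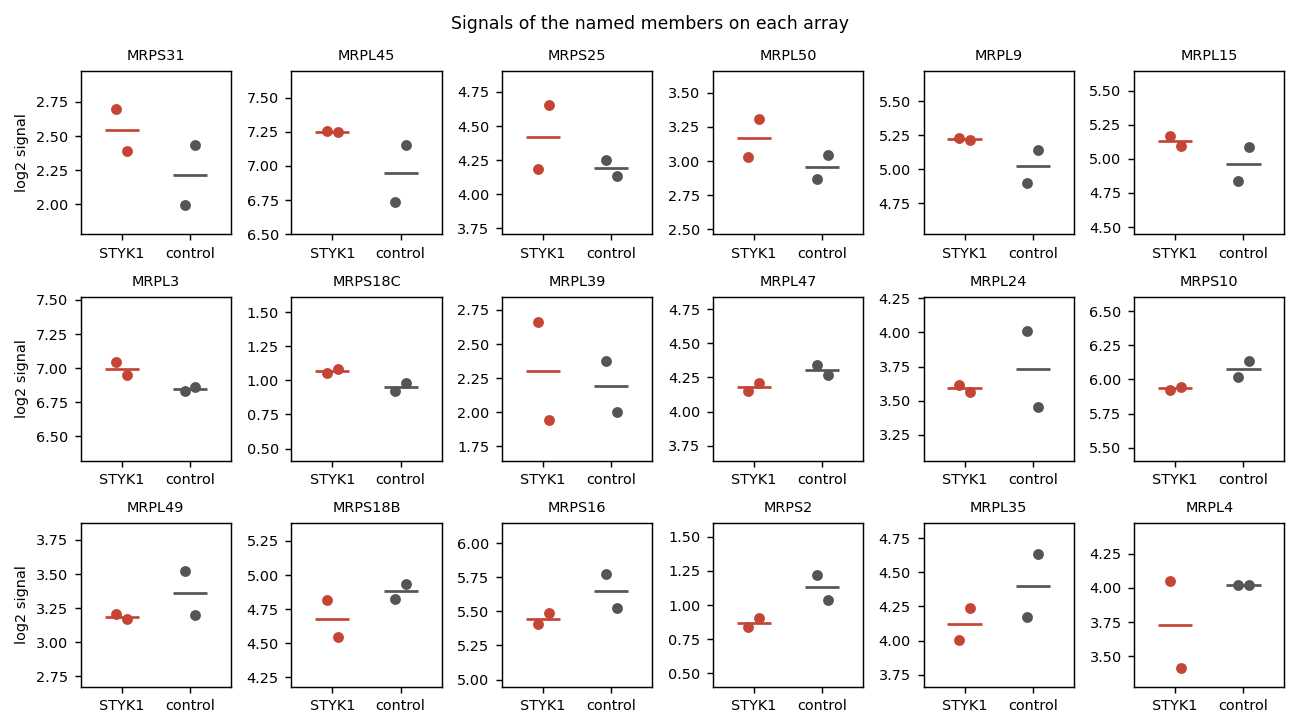
Log2 signal of 18 mitochondrial ribosomal protein genes on each array, with 2 STYK1 arrays in red on the left and 2 control arrays in grey on the right of each panel, bars at the group means and every panel spanning the same range around its own mean. In MRPL4, MRPS25 and MRPL39 the STYK1 arrays lie far apart, and in MRPL24, MRPL35, MRPS31 and MRPL45 the controls do.

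Proteins at functional centres of the ribosome, picked for their role after the values were seen, did not pass either. At the decoding centre, MRPS12 read 2.47 and 3.10 in the STYK1 arrays, against 2.57 and 2.78 in the controls, so that the 2 STYK1 arrays stood below and above both controls. At the base of the stalk that binds translation factors, MRPL11 read 6.27 and 6.55 in the STYK1 arrays, against 6.51 and 6.498 in the controls, and MRPL10, which carries the stalk protein MRPL12, read 1.03 and 0.89 in the STYK1 arrays, against 1.15 and 0.86 in the controls. The controls lay inside the range of the STYK1 arrays for MRPL11, and the STYK1 arrays inside that of the controls for MRPL10. In the stalk that guides spent tRNA out, MRPL1 read 2.37 and 2.05 in the STYK1 arrays, against 2.05 and 2.27 in the controls. MRPL2, which lies close to the peptidyl transferase centre, read 4.90 and 4.84 in the STYK1 arrays, against 4.73 and 5.10 in the controls. MRPL58, a hydrolase that can release stalled peptides, read 5.67 and 5.69 in the STYK1 arrays, against 5.62 and 5.70 in the controls. The steadiest of these was MRPL58, with a difference of 0.02, and the differences of MRPS12, MRPL11, MRPL10, MRPL1 and MRPL2 were 0.11, −0.09, −0.04, 0.05 and −0.04.

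A further 4 members, picked for a known role or disease link after the values were seen, had 0 calls. MRPL41, which has been linked to apoptosis and to arrest of the cell cycle, read 2.26 and 2.45 in the STYK1 arrays, against 2.34 and 2.34 in the controls. MRPL44, which resembles the ribonuclease III family and is mutated in some patients with cardiomyopathy, read 5.03 and 4.72 in the STYK1 arrays, against 4.84 and 5.06 in the controls. MRPS22, a further disease gene, read 2.98 and 2.78 in the STYK1 arrays, against 2.82 and 2.77 in the controls. MRPS34, which helps keep the small subunit RNA stable, read 5.65 and 6.09 in the STYK1 arrays, against 5.96 and 6.26 in the controls. The groups overlapped in each of these 4 genes, and their differences were 0.02, −0.08, 0.08 and −0.24, with no call.

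The list of ribosomal proteins with other names held 4 measured genes, with 0 calls. Of these, 2 were higher and 2 lower, with a median difference of −0.02. The groups overlapped in all 4, where 32.8% of all probe sets did not overlap. DAP3, a GTP-binding protein of the small subunit also known from apoptosis, read 4.84 and 4.85 in the STYK1 arrays, against 4.92 and 4.70 in the controls. CHCHD1 of the small subunit read 2.26 and 2.48 in the STYK1 arrays, against 2.60 and 2.21 in the controls. GADD45GIP1 of the large subunit read 4.46 and 4.53 in the STYK1 arrays, against 4.58 and 4.50 in the controls. Their differences were 0.03, −0.04 and −0.05.

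Of the genes that build and modify the mitochondrial ribosome, FASTKD2 had the smallest p. FASTKD2, an RNA-binding protein needed to assemble the large subunit, read 2.98 and 2.92 in the STYK1 arrays, against 2.65 and 2.40 in the controls. The groups did not overlap, and its difference, 0.43 with a standard error of 0.12, did not pass (limma, unadjusted p = 0.017, adjusted p = 0.979). It was the 1 gene of 25 measured in this list with an unadjusted p under 0.05 (4%), a share near the 4.64% of all probe sets and the 5.38% of named genes above the floor. The list held 12 higher and 13 lower genes with a median of −0.03. METTL15, a methyltransferase of the small subunit RNA, differed by 0.29, and NDUFAB1, the mitochondrial acyl carrier protein, by 0.19, both with an adjusted p of 0.979 (limma).

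Translation factors and RNA handling inside mitochondria gave 0 calls, and 0 genes at an unadjusted p under 0.05 (limma). Of all probe sets 4.64% lay under it, and of named genes above the floor on all arrays 5.38%. In lists this short, a count of 0 is no result about their genes. Of 15 measured translation factors and regulators, 12 were higher and 3 lower, with a median of 0.05. TSFM, the exchange factor of the elongation factor TUFM, read 1.38 and 1.17 in the STYK1 arrays, against 1.46 and 1.68 in the controls, a difference of −0.29. The elongation factor GFM1 differed by 0.17 and LRPPRC, which stabilises mitochondrial messenger RNA, by 0.15. Of 18 genes of mitochondrial transcription and RNA processing, 8 were higher and 10 lower, with a median of −0.03. POLRMT, the mitochondrial RNA polymerase, read 3.41 and 3.30 in the STYK1 arrays, against 3.66 and 3.47 in the controls, a difference of −0.21. The exonuclease REXO2 differed by 0.21 and PRORP, the catalytic subunit of mitochondrial RNase P, by −0.16. Adjusted p-values of these 6 genes were 0.979 (limma).

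GABPA, NRF1 and YY1 were themselves measured. Of 9 regulators of nuclear genes for mitochondria, 7 were higher and 2 lower, with a median of 0.08 and 0 calls. YY1 read 3.85 and 4.12 in the STYK1 arrays, against 3.77 and 3.75 in the controls, a difference of 0.22. GABPA, the ETS factor, read 3.002 and 2.91 in the STYK1 arrays, against 2.85 and 2.81 in the controls, a difference of 0.13. PPARGC1A, a coactivator of mitochondrial biogenesis, read 1.04 and 1.22 in the STYK1 arrays, against 0.85 and 1.02 in the controls. It differed by 0.19, and its signals lay near the floor. The 3 had an adjusted p of 0.979 (limma). NRF1 read 2.65 and 2.12 in the STYK1 arrays, against 2.48 and 2.30 in the controls. The median difference of the ribosomal protein genes was 0.02 for the 27 with an ETS core and −0.0099 for those without, and 0.0055 for the 16 with a YY1 core and 0.01 for those without.

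Peptidases that process imported proteins, with other mitochondrial proteases, had 7 of 12 genes higher and 5 lower, with a median of 0.01. CLPX, the unfoldase of the CLP protease, differed by −0.22, IMMP1L, an inner membrane peptidase, by 0.18 and HTRA2, a serine protease, by −0.14. Each had an adjusted p of 0.979 (limma), and the signals of IMMP1L, 0.80 to 1.16, lay near the floor. The transcripts that the mitochondrial ribosome translates were read for 8 genes, 6 higher and 2 lower, with a median of 0.07. ND5, a subunit of complex I, read 10.17 and 10.46 in the STYK1 arrays, against 10.18 and 10.21 in the controls. ND6 differed by 0.34, ND5 by 0.12 and COX1 by 0.10, and 0 of 8 genes had groups that did not overlap. The difference of ND6 was 0.0044 without STYK1 replicate 2 and 0.67 without STYK1 replicate 1. STYK1 replicate 2 was the highest of the 4 arrays in 7 of these 8 genes.

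No 1 array carried a shift of the ribosomal protein genes. Their mean deviation from each gene's mean was 0.0059 and −0.01 in STYK1 replicates 1 and 2, and −0.02 and 0.03 in control replicates 1 and 2. Of the 71 genes, the highest signal lay in STYK1 replicate 1 for 22 and in STYK1 replicate 2 for 16, and in control replicate 1 for 12 and in control replicate 2 for 21. The target genes of ATF4, a stress-induced transcription factor, lay further apart between the same arrays. Over 12 measured genes they deviated by 0.35 and −0.31 in STYK1 replicates 1 and 2 and by −0.21 and 0.17 in control replicates 1 and 2. ASNS, asparagine synthetase, read 5.59 and 4.61 in the STYK1 arrays, against 4.54 and 4.96 in the controls, SLC7A11, a cystine transporter, differed by 0.29, and DDIT4, an inhibitor of mTORC1, by −0.28. None of the 3 passed (limma, adjusted p from 0.98 to 0.984). In these 12 genes the median gap was 0.62 between the STYK1 arrays and 0.41 between the controls. Between same-numbered arrays of different groups it was 0.63 for replicates 1 and 0.44 for replicates 2. It was only 0.16 for STYK1 replicate 1 and control replicate 2, and 0.15 for STYK1 replicate 2 and control replicate 1. Whether that bears on any ribosomal protein gene was not tested.

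**Figure D5:**
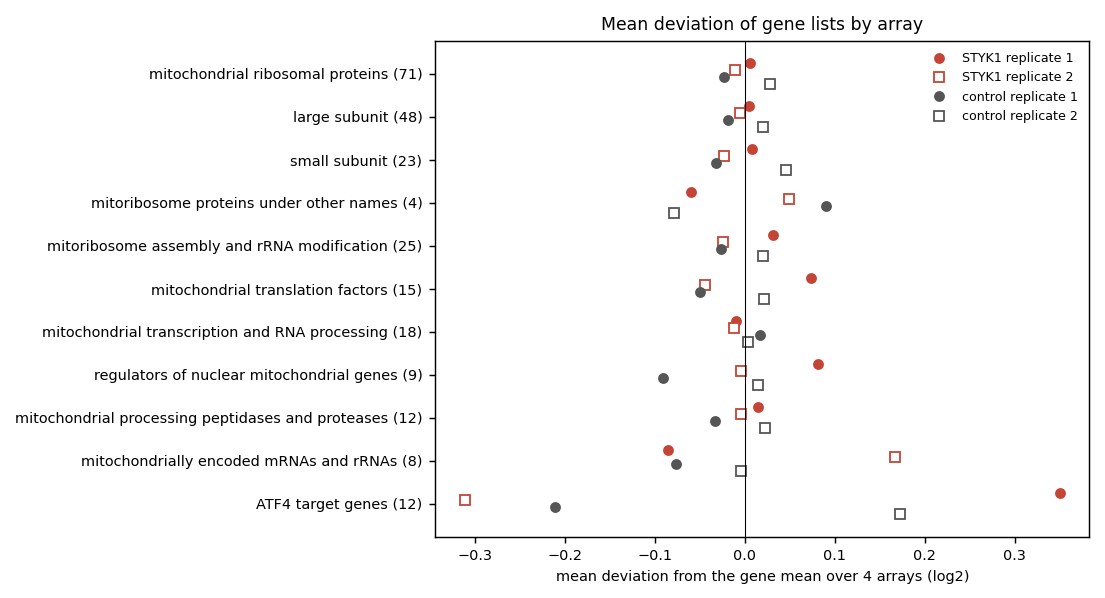
Mean deviation of each gene list from its genes' means over the 4 arrays (log2, horizontal axis), with 1 symbol per array, STYK1 in red and control in grey, and the number of measured genes in brackets. The ribosomal protein genes stay between −0.02 and 0.03 on all arrays, whereas ATF4 target genes lie between −0.31 and 0.35.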

How the data were processed

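The authors deposited 1 table of processed log2 values, with 53617 probe sets and 1 column per array (2 STYK1, 2 control). Per the labels, the arrays were Affymetrix whole-transcript arrays with biotin-labelled cDNA. Per the submitters' processing notes, the software was Transcriptome Analysis Console. Its version, the summarization and the genome build are not given in the sources used. The log base was inferred from the values. Probe sets were named from the platform annotation and, by Entrez ID, from RefSeq (GRCh38.p14). 23871 had 1 symbol (a repeated symbol counts once), 1842 several and 27904 none here.

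Groups were compared with limma 3.58.1 in R 4.3.3 (lmFit, eBayes without trend, two-sided) over all 53617 probe sets, with Benjamini-Hochberg adjustment, a threshold of 0.05 and 2 residual degrees of freedom. The fit was tried on simulated data with added changes larger than any difference of the members, in probe sets brighter than the dimmest members. That trial does not cover differences or signals as small as theirs. Members and lists were chosen with earlier results of these data known. Named were STYK1, the 8 higher and 8 lower members with the smallest p, the 3 largest differences each way, the member with the widest gap within each group, and 3 genes per related list. Any member at an unadjusted p under 0.05 or under the floor on all arrays would have been named too. The motifs and the members picked by role were chosen later. Mitochondrially encoded genes were found through RefSeq synonyms, since their listed symbols matched nothing at first. Alternatives were other eBayes settings, normalizations, feature filters and probe set rules, each array left out, and the replicate number as a block.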

Additional observations from a re-analysis of the deposited data

How the results depend on the processing

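With 2 arrays a group, differences of the size most members showed are within the spread between arrays. In all 12 alternatives 0 of the 71 genes passed the adjusted threshold (lowest 0, highest 0 without 1 array at a time), with smallest adjusted p-values of 0.948 or above for the 18 named members. The count at an unadjusted p under 0.05 was 0 with all 4 arrays. Without 1 array at a time this count was not always 0. It is not read further, since a lone array is then assumed to vary like the other group. The median difference was −0.032 after quantile normalization and −0.023 to 0.024 without 1 array at a time. STYK1 differed by 6.96 to 7.42 without 1 array at a time and by 7.19 with the replicate number as a block (adjusted p = 0.0637), and in each case its call ended with 1 residual degree of freedom left. The block changed no other call. Same-numbered arrays had deviations correlated at −0.04 over all probe sets and −0.0034 over the members, and the labels do not say that a number marks a shared culture. Of 216 differences of named members under the alternatives, 211 kept their direction and 5 turned. Of 288 differences of named related genes 281 kept it and 7 turned. All that turned did so without 1 array. The other eBayes settings, the feature filters and the block leave a difference as it is, so they could not turn one. Without 1 array at a time the ranges, with MRPL45 and MRPL35 as members that kept their sign, were −0.24 to 0.47 for MRPL39, −0.42 to 0.14 for MRPL24, −0.61 to 0.029 for MRPL4, −0.0065 to 0.46 for MRPS25, 0.10 to 0.51 for MRPL45, −0.51 to −0.053 for MRPL35, −0.14 to 0.84 for ASNS, −0.66 to 0.10 for DDIT4, −0.23 to 0.16 for CHCHD1, −0.077 to 0.15 for DAP3, −0.013 to 0.22 for COX1 and −0.031 to 0.26 for ND5. The cause was not tested.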

Other observations

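The transcripts left out of the family read as follows. The antisense gene MRPL20-AS1 read 1.79 and 1.601 in the STYK1 arrays, against 1.52 and 1.92 in the controls, and MRPL23-AS1 read 0.67 and 0.83 in the STYK1 arrays, against 0.69 and 0.40 in the controls. MRPL42P5 and MRPS30-DT lay under the floor on all 4 arrays. MRPL33, a short protein of the large subunit, was read by 2 probe sets. The brighter one differed by 0.07 and the dimmer one, which lay above the floor on 1 array, by −0.23, so the 2 did not have the same sign (limma, adjusted p = 0.994 and 0.979). These genes were chosen after their values were seen.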
